A study of Mus musculus with 6 samples.

Results

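Aminoacyl-tRNA synthetases are the enzymes that join each amino acid to its transfer RNA (tRNA). Their 37 genes are described here in uteri of floxed control mice and of mice labelled as Nat10-deleted. The members were taken by symbol from a table of 20637 genes: all rows named as an aminoacyl-tRNA synthetase, with 20 cytosolic enzymes and 17 mitochondrial enzymes (the symbols ending in 2, other than Tarsl2). The rule reads gene symbols only. The cytosolic methionine enzyme gene, Mars, was not analysed here. All 37 identifiers matched GENCODE release M21 under the same symbol.

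Poly(A) RNA of whole uteri from female mice killed on postnatal day 21 was sequenced in 3 libraries from mice labelled Nat10 f/f (floxed controls) and 3 from mice labelled Nat10 d/d (Nat10 deleted). The Cre driver, the deleted exons, the cells that carry the deletion and the strain are not given in the sources used here; no group without floxed alleles is among the samples. Nothing says whether a library is 1 animal or a pool, so p-values measure the spread between these libraries, which may in part be technical. In whole tissue, fewer cells of a type and less RNA per cell cannot be told apart. Values are FPKM, fragments scaled for transcript length and library depth, and may therefore be compared between genes.

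Cells use largely separate synthetases in the cytosol and in mitochondria, all encoded in the nucleus, though single genes such as Kars and Gars serve both. They fall into 2 structural classes, I and II, which evolved apart. In animals, several cytosolic enzymes are held with the scaffold proteins Aimp1, Aimp2 and Eef1e1 in a multi-synthetase complex. When amino acids run short, uncharged tRNA activates the kinase Gcn2 (gene Eif2ak4), and the transcription factor Atf4 then drives a programme that includes many cytosolic synthetase genes. Nat10 is the acetyltransferase that forms N4-acetylcytidine, and with its adaptor Thumpd1 it acetylates serine and leucine tRNAs, the substrates of Sars and Lars.

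The targeted gene was read first. Nat10 was at 13.2, 16.4 and 9.95 FPKM in the controls and at 5.57, 5.23 and 5.53 FPKM in the deleted libraries, with no overlap. The deleted mean was 41.4% of the control mean, so Nat10 RNA was reduced and not absent. The log2 change of FPKM + 1 was -1.11 (SE 0.17; adjusted p 0.669 from limma; exact permutation p 0.1, two-sided, the smallest that 3 libraries against 3 can give). Each library listed 15431 to 15680 genes above 0, and deposited values summed to 500764 to 549263. The number of reads is not given. Markers of uterine epithelium, stroma and myometrium fixed in the lists were all present above the filter. Groups did not overlap for 4 of 7 epithelial genes (Cldn7, Epcam and Wnt7a higher in deleted uteri, Foxa2 lower), 2 of 3 mesothelial genes (Lrrn4 and Msln, lower) and 1 of 4 endothelial genes (Kdr, log2 change -0.47), against 0 of 6 stromal and 0 of 5 myometrial genes and 10.7% of all tested genes. None of these markers passed the test (smallest limma adjusted p 0.8058, for Kdr), and their part in the synthetase levels was not tested. Of 6 defining genes of ovary (summed 18.6 to 30.02 FPKM), Fshr, Oosp1 and Zp3 were listed at 0 in all libraries, and Foxl2, which the uterus also expresses, made up nearly all of the sum. Foxl2 was at 28.1, 28.9 and 26.7 FPKM in the controls and at 22.2, 18.1 and 24.04 FPKM in the deleted libraries, without overlap (log2 change -0.37; limma adjusted p 0.9225). Defining genes of oviduct (summed 1.16 to 6.67 FPKM over 3) and fat (0.979 to 50.98 over 4) were low in most libraries, with fat highest in control replicate 1. The 5 blood genes summed to 709 to 5581 FPKM, each with a lower mean in deleted uteri and overlapping groups (median log2 change -0.98), and the 5 leukocyte genes to 22.6 to 39.3. Nat10 d/d replicate 2 stood apart in dividing-cell genes, as its values below show.

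None of the 37 synthetase genes passed the test between Nat10-deleted and control uteri. All 37 passed the low-value filter (at least 1 FPKM in at least 3 libraries), 23 had a higher and 14 a lower mean log2 value in deleted uteri, and the smallest adjusted p from limma was 0.9225. Over all tested genes 7154 were higher and 5486 lower. No gene of the 12640 tested was called at an adjusted p of 0.05 (0% of the background), and 630 genes (4.98%) but 0 synthetases had an unadjusted p under 0.05. The median log2 change was 0.03 for the cytosolic and 0.05 for the mitochondrial enzymes, beside 0.03 for all tested genes. Deleted means lay between 92.02% and 110.3% of control means among cytosolic enzymes and between 86.8% and 132.9% among mitochondrial ones. The 95% interval of the log2 change lay within 0.5 on either side of 0 for 19 of 20 cytosolic and 13 of 17 mitochondrial genes, so larger changes of those 32 genes lay outside their intervals. The widest interval belonged to Aars, from -0.51 to 0.71. These changes are on the scale of log2(FPKM + 1), which understates the change of low genes such as Sars2 and Mars2.

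**Figure D1:**
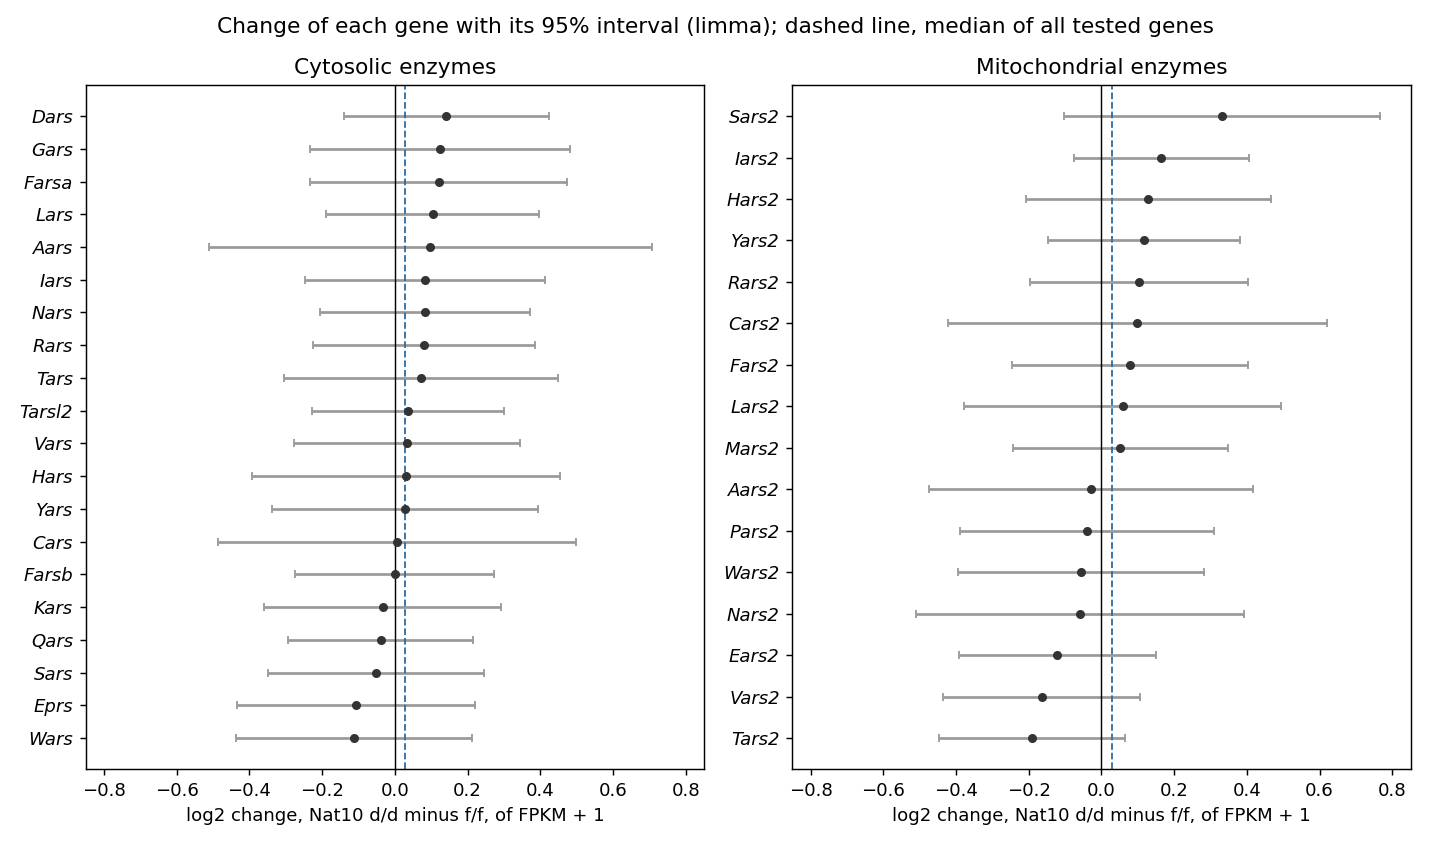
Log2 change (Nat10 d/d minus f/f, of FPKM + 1) of 20 cytosolic and 16 mitochondrial synthetase genes, with points for the limma estimate and bars for its 95% interval; the dashed line is the median of all 12640 tested genes, 0.03. Every interval includes 0, and the estimates run from -0.19 for Tars2 to 0.33 for Sars2.

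In the controls, cytosolic synthetase genes had a median level of 32.4 FPKM and mitochondrial ones of 8.8 FPKM, against 13.3 FPKM for all tested genes. Control means ranged from 9.74 to 79.7 FPKM among cytosolic enzymes and from 3.58 to 35.5 among mitochondrial ones. Of the cytosolic genes 12 had a control mean above 30 FPKM, and of the mitochondrial genes 1 did, while 8 mitochondrial genes had a control mean below 5 FPKM. Summed over the 20 cytosolic genes, values stood at 667, 719 and 637 FPKM in the controls and at 645, 798 and 635 FPKM in the deleted libraries. The mitochondrial sums stood at 175, 189 and 186 FPKM in the controls and at 186, 208 and 177 FPKM in the deleted libraries. Both sums were highest in Nat10 d/d replicate 2, and the other deleted libraries lay within or just below the control range.

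**Figure D2:**
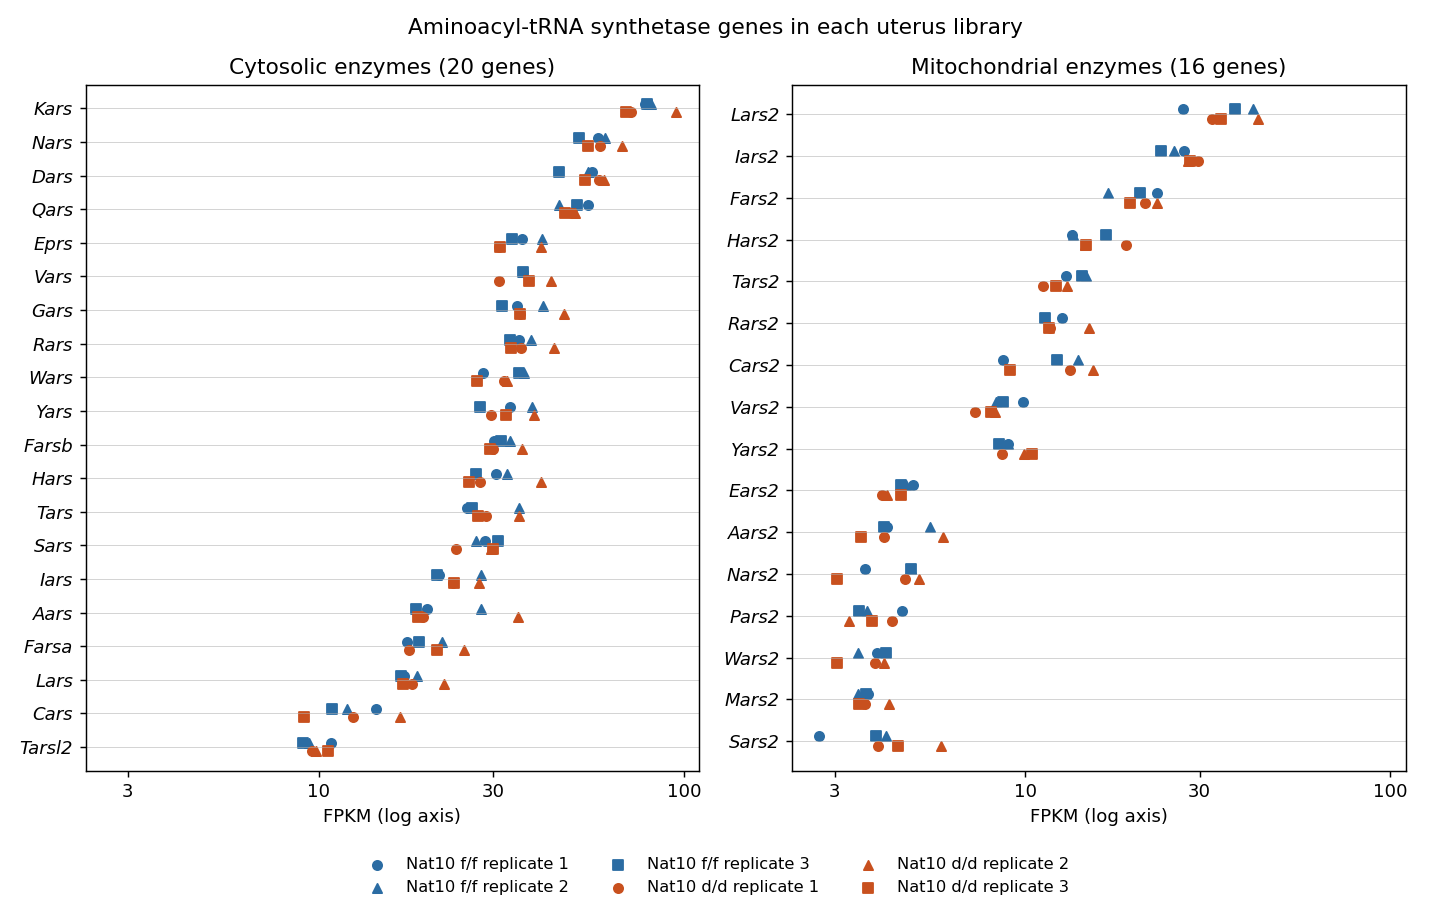
FPKM (log axis) of 20 cytosolic (left) and 16 mitochondrial synthetase genes (right) in each of the 6 libraries, ordered by control mean. Kars, at 78.4 to 81.2 in the controls, is the highest gene, and 7 of the mitochondrial genes drawn have control means below 5.

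Kars (chromosome 8, 111993443 to 112011323, minus strand, mm10), whose lysine enzyme serves both the cytosol and mitochondria, was the most abundant member. It was at 78.4, 81.2 and 79.3 FPKM in the controls and at 71.7, 94.9 and 69.2 in the deleted libraries. The deleted values thus lay on both sides of a narrow control range, and the log2 change was -0.03. Nars, the asparagine enzyme, followed at 58.3, 60.7 and 51.5 FPKM in the controls and at 59.02, 67.6 and 54.5 FPKM in the deleted libraries. Dars, the aspartate enzyme, was at 56.2, 54.8 and 45.6 FPKM in the controls and at 58.4, 60.5 and 53.7 FPKM in the deleted libraries. The ranges of both genes overlapped between the groups, and the change of Dars was 0.14 (SE 0.12), or 0.05 without control replicate 3. In the order of control means, Kars stood clear of Nars, and Qars (glutamine; control mean 50.5) stood clear of Eprs (36.95), whereas neighbours from Eprs down to Lars had overlapping control ranges. In all, 4 of 19 neighbouring pairs of cytosolic genes and 4 of 16 of mitochondrial genes did not overlap.

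At the low end of the cytosolic set stood Lars, Cars and Tarsl2. Tarsl2 (chromosome 7, 65644898 to 65692091, plus strand), a second threonine enzyme of the cytosol, was at 10.8, 9.37 and 9.04 FPKM in the controls and at 9.56, 9.85 and 10.6 in the deleted libraries. Its groups overlapped, and the log2 change was 0.04. Cars, the cysteine enzyme, was at 14.4, 12 and 10.9 FPKM in the controls and at 12.4, 16.7 and 9.13 in the deleted libraries, which enclosed the control range.

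The enzymes that charge the acetylated tRNAs were read together. Sars, the serine enzyme, was at 28.5, 26.9 and 31.03 FPKM in the controls and at 23.8, 29.7 and 30.1 in the deleted libraries. Only Nat10 d/d replicate 1 lay below the controls, and the log2 change was -0.05 (95% interval -0.35 to 0.24). Lars, the leucine enzyme, was at 17.1, 18.6 and 16.8 FPKM in the controls and at 17.96, 22.01 and 17.01 in the deleted libraries, a change of 0.10 (interval -0.19 to 0.40). Thumpd1, the tRNA adaptor of Nat10, was at 25.7, 28.8 and 25.2 FPKM in the controls and at 31.1, 27.4 and 28.1 in the deleted libraries, with overlapping groups. Thus the transcripts of Sars, Lars and Thumpd1 overlapped between groups in which Nat10 itself did not.

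Wars, the tryptophan enzyme, is known to be induced by interferon. It was at 28.1, 36.4 and 35.4 FPKM in the controls and at 32.2, 32.7 and 27.1 in the deleted libraries, a log2 change of -0.11 (SE 0.14). For the 19 interferon response genes tested the median log2 change was 0.80. All 19 were higher on average, yet both groups overlapped for each, and 0 had an unadjusted p under 0.05. Expressed as a difference from each gene's control mean, the list stood at -0.95, -0.04 and 0.95 among controls, against 1.65, 0.71 and -0.01 among deleted libraries. The library with the most interferon response RNA, Nat10 d/d replicate 1, had a Wars value inside the control range, while the lowest library of each group on that list, control replicate 1 and Nat10 d/d replicate 3, also had the lowest Wars value of its group. The part of the interferon response in the Wars levels was not tested.

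The multi-synthetase complex was represented by 7 synthetase genes (Dars, Eprs, Iars, Kars, Lars, Qars and Rars), 4 of them higher and 3 lower, and with a median change of 0.08. The 13 cytosolic enzymes outside the complex had a median change of 0.03. Eprs, which charges both glutamate and proline in 1 protein, was at 36.1, 40.8 and 33.9 FPKM in the controls and at 31.2, 40.6 and 31.4 in the deleted libraries, so that deleted replicates 1 and 3 lay below the controls and replicate 2 inside their range. Of the scaffold genes, Aimp1 had a control mean of 84.9 ± 8.39 FPKM (SD, n = 3) and a deleted mean of 89.8 ± 3.87 (SD, n = 3). Aimp2 was at 25.1 ± 2.47 and 26.1 ± 5 (SD, n = 3 each), and Eef1e1 at 16.5 ± 3.98 and 20.4 ± 6.45 (SD, n = 3 each). The 16 partner, editing and accessory genes include the mitochondrial glutaminyl-tRNA amidotransferase subunits Qrsl1, Gatb and Gatc. Of the 16, 13 were higher and 3 lower (all tested genes, 7154 and 5486). An unadjusted p under 0.05 was found for 0, and the median change was 0.08. Nat10 d/d replicate 2 held the highest value for 8 of them (50%, background 30.1%).

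By structural class, the median log2 change was 0.04 over the 18 class I genes and 0.04 over the 19 class II genes, close to the 0.03 of all tested genes.

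The mitochondrial enzymes spanned a 9.91-fold range of control means. Lars2, the mitochondrial leucine enzyme (chromosome 9, 123366927 to 123462666, plus strand), was the highest, at 27, 42.1 and 37.5 FPKM in the controls and at 32.5, 43.3 and 34.3 FPKM in the deleted libraries. Its control range enclosed all deleted values but that of replicate 2. Iars2, the isoleucine enzyme (chromosome 1, 185284726 to 185329396, minus strand), came next. Fars2, the phenylalanine enzyme, was at 22.9, 16.8 and 20.6 FPKM in the controls and at 21.2, 22.9 and 19.4 in the deleted libraries, within the control range.

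Groups did not overlap for 2 of the 37 members, 5.41%, where 10.7% of all tested genes showed such a separation. Iars2 was at 27.2, 25.5 and 23.6 FPKM in the controls and at 29.6, 27.8 and 28.3 in the deleted libraries. All deleted libraries were above all controls, with a log2 change of 0.16 (SE 0.10; limma adjusted p 0.9225; background for separation upward 6.12%). Of the exonic bases of Iars2, 22.9% also lie in exons of Rab3gap2, which was at 9.28, 9.52 and 10.1 FPKM in the controls and at 8.85, 9.14 and 9.90 FPKM in the deleted libraries, a log2 change of -0.05. Vars2, the mitochondrial valine enzyme (chromosome 17, 35655634 to 35667592, minus strand), was at 9.86, 8.29 and 8.69 FPKM in the controls and at 7.26, 8.27 and 8.07 in the deleted libraries. All deleted libraries were below all controls, but control replicate 2 and Nat10 d/d replicate 2 nearly met, and the change was -0.16 (SE 0.12; limma adjusted p 0.926; background for separation downward 4.6%). Neither gene passed the test, and the share of members that separated was not above the background.

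The members with the lowest control means were Sars2, Mars2 and Wars2. Sars2, the mitochondrial serine enzyme (chromosome 7, 28741992 to 28753871, plus strand), was at 2.72, 4.15 and 3.89 FPKM in the controls and at 3.94, 5.86 and 4.49 in the deleted libraries, so that replicates 2 and 3 lay above the controls and replicate 1 inside their range. The estimate was 0.33 (SE 0.19; adjusted p 0.9225 from limma), and the interval ran from -0.10 to 0.77. It was 0.19 without control replicate 1, 0.20 without Nat10 d/d replicate 2 and 0.21 with array quality weights. Mars2, the methionine enzyme, was at 3.71, 3.47 and 3.65 FPKM in the controls and at 3.64, 4.22 and 3.50 in the deleted libraries. Wars2, the tryptophan enzyme, was at 3.92, 3.47 and 4.15 FPKM in the controls and at 3.87, 4.11 and 3.05 in the deleted libraries. For Mars2 and Wars2 at least 1 deleted library lay inside the control range. Tars2, the threonine enzyme, had an estimate of -0.19 (SE 0.11), with values at 12.9, 14.6 and 14.3 FPKM in the controls and at 11.2, 13 and 12.2 FPKM in the deleted libraries. Its groups met only at the lowest control, 12.9, and the highest deleted library, 13.

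For 12 amino acids a cytosolic and a mitochondrial gene were compared, and the ratio between them was taken within each library. The cytosolic gene was higher in every library for 9 pairs, and the median ratio of control means was 3.39. Of the 12, Nars over Nars2 (ratio of control means 12.8) and Wars over Wars2 (8.66) were the most unequal. The order was turned for leucine: Lars was at 0.44 to 0.64 times Lars2 in all 6 libraries. For isoleucine the ratio ran from 0.78 to 1.10 and for cysteine from 0.86 to 1.65, so neither pair had a fixed order. In the serine pair, whose cytosolic enzyme charges an acetylated tRNA, the ratio was 10.5, 6.5 and 7.98 among controls, against 6.04, 5.07 and 6.7 among deleted libraries. These ranges overlapped only between control replicate 2 and Nat10 d/d replicate 3. The valine pair (3.675, 4.36 and 4.18 among controls, 4.31, 5.22 and 4.68 among deleted libraries) overlapped as narrowly. So did the threonine pair (1.97, 2.41 and 1.85 among controls, 2.57, 2.73 and 2.25 among deleted libraries). In the leucine pair, whose cytosolic enzyme also charges an acetylated tRNA, the ratio was 0.64, 0.44 and 0.45 among controls, and these enclosed the 0.55, 0.51 and 0.50 of the deleted libraries. None of these ratios was tested.

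**Figure D3:**
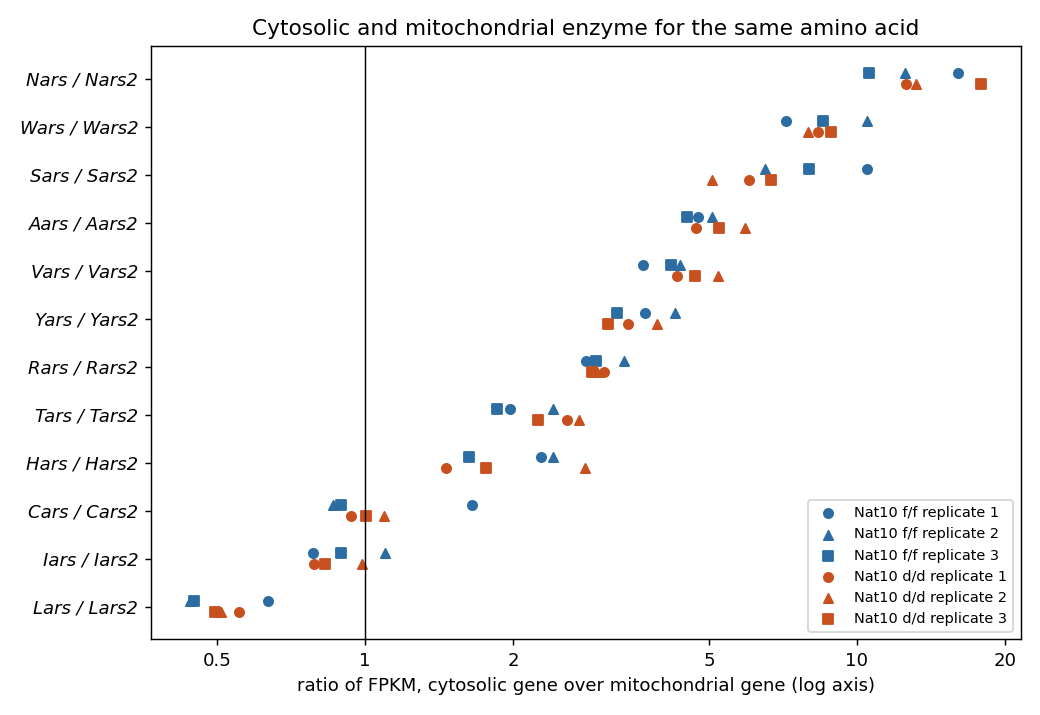
Ratio of the FPKM of the cytosolic gene to that of the mitochondrial gene (log axis) for 12 amino acids, 1 point per library; the vertical line marks equal levels. Of the pairs, 9 lie to the right of the line in every library, and only Lars over Lars2 lies to its left in all 6.

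More variation lay between single libraries than between the groups. Relative to each gene's control mean of log2(FPKM + 1), the cytosolic genes stood at a median of -0.02, 0.10 and -0.11 in control replicates 1, 2 and 3 and of -0.03, 0.25 and -0.06 in Nat10 d/d replicates 1, 2 and 3. Thus Nat10 d/d replicate 2 had the highest cytosolic synthetase level and control replicate 2 the next. The mitochondrial median was 0.02, 0.01 and 0.01 among controls, against 0.01, 0.18 and -0.04 among deleted libraries, so only the same deleted library stood out. Over all tested genes the same medians lay between -0.01 and 0.03. Nat10 d/d replicate 2 held the highest value of the 6 libraries for 14 of 20 cytosolic and 8 of 17 mitochondrial genes, where the background over all tested genes was 30.1%. It exceeded both other deleted libraries for 18 of 20 cytosolic and 12 of 17 mitochondrial genes, against 40.1% of all tested genes. Nat10 d/d replicate 2 and control replicate 2 were the highest pair of libraries for 13 of 20 cytosolic genes (65%) and 4 of 17 mitochondrial genes (23.5%), where the background was 10.8%. These counts describe single libraries, and genes of 1 library are not independent of each other. Without Nat10 d/d replicate 2 the median log2 change was -0.07 for cytosolic and -0.05 for mitochondrial enzymes, and 0 members were called.

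**Figure D4:**
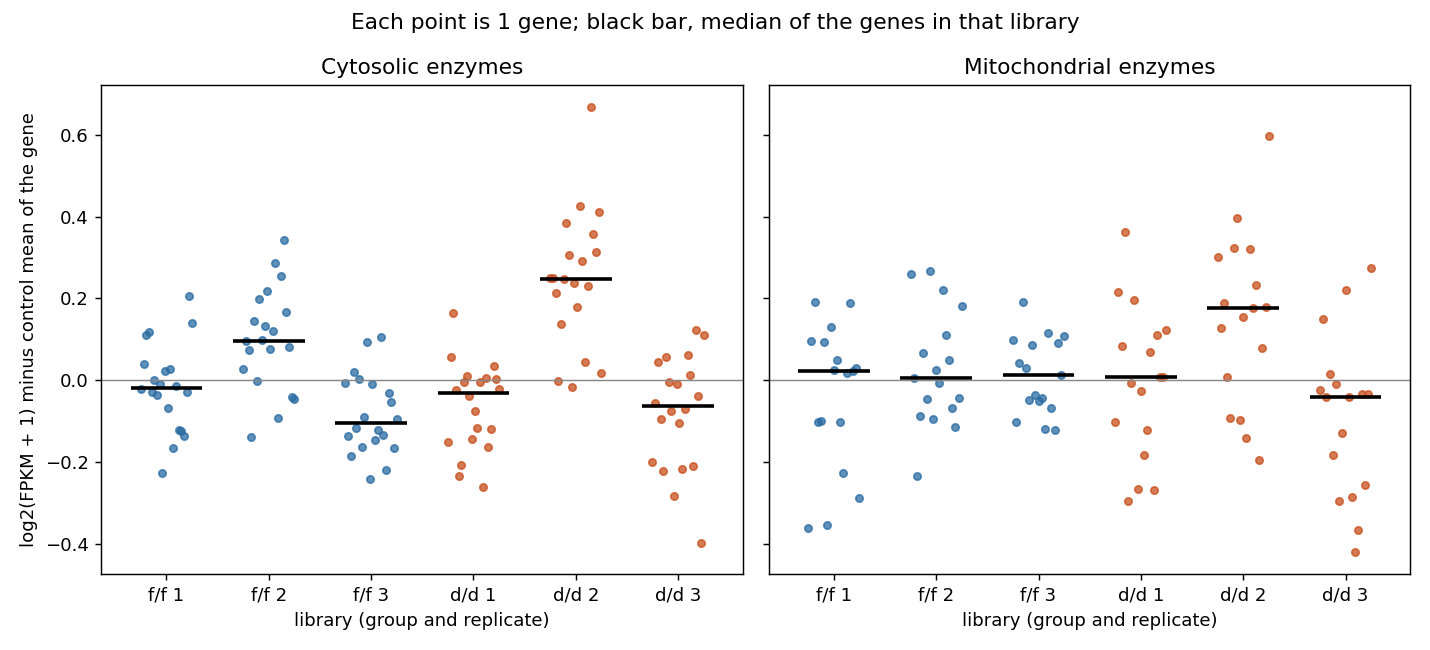
Log2(FPKM + 1) of each synthetase gene minus its own control mean, by library, with blue points for Nat10 f/f, orange points for Nat10 d/d and black bars for the median over the 20 cytosolic or 17 mitochondrial genes. The cytosolic medians are highest in d/d replicate 2 (0.25) and f/f replicate 2 (0.10).

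Genes of dividing cells also varied between libraries. On the same scale, 19 tested proliferation genes stood at a median of 0.60, -0.81 and 0.15 among controls, against -0.93, 1.76 and -1.35 among deleted libraries. Summed over the 20 listed genes, the level was 164, 57.8 and 118 FPKM among controls, against 48.8, 397 and 31.2 FPKM among deleted libraries. Nat10 d/d replicate 2 was thus highest in both proliferation and synthetase genes, but control replicate 2, next in cytosolic synthetases, was the lowest control in proliferation genes. The part of proliferation in the synthetase levels was not tested.

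The synthetase promoters were examined for the sequence to which Atf4 binds together with C/EBP proteins. The motif TGATGNAAN was searched on both strands of RefSeq promoters (GRCm38.p6, 250 bases before to 50 after the annotated start), in which 27 of the 37 members had an entry by symbol. Those without an entry include Cars, Hars, Hars2, Lars, Nars, Pars2, Rars, Vars and Wars. The motif was in 5 of 13 cytosolic and 0 of 14 mitochondrial promoters, and in 4.5% of 27025 genes with a promoter. It was chosen after 6 other motifs had been looked at in the same promoters on both strands. A stricter form ending in T or C was in the same number of cytosolic (5) and mitochondrial (0) promoters and in 1.95% of all genes. The interferon-stimulated response element was in 1 cytosolic and 0 mitochondrial promoters (3.99% of all genes), the CCAAT box in 6 and 6 (41.1%), and the ETS motif CCGGAAG in 4 and 4 (9.93%). The cAMP response element TGACGTCA (2.03%) and the NRF1 motif (1.07%) were in none of the 27. Of the 13 cytosolic genes searched, 7 are commonly listed as Atf4 targets, of which Eprs and Sars had no match. Cars, Lars, Nars and Wars are also listed but had no promoter entry. All 5 genes with the motif, Aars, Gars, Iars, Tars and Yars, are among those listed. The stretches that hold it are printed here because these genes followed 1 pattern across libraries; capitals mark the motif on either strand, in lower case is the surrounding sequence, and all read 5′ to 3′ on the gene's strand.
Aars, chr8:111033669-111033788, plus strand: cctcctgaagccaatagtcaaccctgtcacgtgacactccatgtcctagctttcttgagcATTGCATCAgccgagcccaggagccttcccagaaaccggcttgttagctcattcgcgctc
Aars, second match, chr8:111033840-111033869, plus strand: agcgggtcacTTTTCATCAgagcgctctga
Gars, chr6:55037881-55038000, plus strand: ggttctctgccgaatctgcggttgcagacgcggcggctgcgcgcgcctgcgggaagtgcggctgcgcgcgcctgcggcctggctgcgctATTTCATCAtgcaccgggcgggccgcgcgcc
Tars, chr15:11399659-11399778, minus strand: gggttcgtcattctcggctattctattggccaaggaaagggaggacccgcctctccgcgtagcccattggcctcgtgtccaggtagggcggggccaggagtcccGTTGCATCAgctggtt
Iars, chr13:49682126-49682155, plus strand: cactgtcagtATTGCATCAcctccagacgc
Yars, chr4:129189896-129189925, plus strand: cgagctcagcTGATGCAACccgacgggact
The motif began 113, 31 and 16 bases before the start in Aars, Gars and Tars, and just after it in Iars, in Yars and in a second match of Aars. A match is a description of these letters, and no binding was measured.

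Each of these 5 genes had Nat10 d/d replicate 2 and control replicate 2 as its highest pair of libraries, as had 4 of the 8 cytosolic genes searched without a match (Kars, Eprs, Farsb and Farsa) and 4 of the 7 that had no promoter entry and were not searched (Nars, Rars, Hars and Lars). This set was formed after values were seen and has no test. Aars, the alanine enzyme, was at 19.8, 27.8 and 18.5 FPKM in the controls and at 19.3, 35.1 and 18.6 in the deleted libraries. Of its exonic bases 14.3% also lie in exons of Exosc6, which was at 12.6, 14.9 and 12.3 FPKM in the controls and at 10.4, 18.7 and 11.2 FPKM in the deleted libraries, with the same highest libraries. Gars, the glycine enzyme of both compartments, was at 34.8, 41.2 and 31.8 FPKM in the controls and at 35.6, 46.9 and 35.6 in the deleted libraries. Iars, the isoleucine enzyme, was at 21.3, 27.9 and 21.1 FPKM in the controls and at 23.3, 27.4 and 23.5 in the deleted libraries. Tars, the threonine enzyme, was at 25.5, 35.3 and 26.4 FPKM in the controls and at 28.7, 35.5 and 27.3 in the deleted libraries. Yars, the tyrosine enzyme, was at 33.3, 38.3 and 27.6 FPKM in the controls and at 29.6, 38.8 and 32.6 in the deleted libraries. For Iars, Tars and Yars the replicates numbered 2 of the 2 groups had nearly the same value, well above or at the top of the other libraries. As a difference from the control mean, the 5 genes had a median of -0.12, 0.26 and -0.16 among controls, against -0.01, 0.29 and -0.01 among deleted libraries. The 8 cytosolic genes searched without a match had a median of -0.02, 0.05 and -0.02 among controls, against -0.10, 0.16 and -0.02 among deleted libraries.

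The wider amino acid response was read beside them. Of 25 listed genes 24 were tested, 17 were higher and 7 lower in deleted uteri (all tested genes, 7154 and 5486), and the median log2 change was 0.05. An unadjusted p under 0.05 was found for 3 of 24 (background 4.98%) and none passed an adjusted p of 0.05: Stc2 (-0.45), Cebpg (0.32) and Nupr1 (0.43), with a limma adjusted p of 0.9225 for each. Atf4 itself was at 75.3, 92.8 and 70.1 FPKM in the controls and at 116, 110 and 84.3 FPKM in the deleted libraries. Deleted replicates 1 and 2 thus lay above the controls, with replicate 3 inside their range. Asns, asparagine synthetase and a known Atf4 target, was at 7.16, 10.4 and 6.75 FPKM in the controls and at 7.89, 15.6 and 5.66 in the deleted libraries. The 2 highest values of Asns were in the same libraries as those of the 5 motif genes. With Asns included, 4 of the 24 listed genes had this highest pair (16.7%, background 10.8%). The highest Atf4 value was in Nat10 d/d replicate 1, and 11 of the 24 listed genes (45.8%, background 30.1%) were highest in Nat10 d/d replicate 2. Psat1, an enzyme of serine synthesis, was at 51.4 FPKM in Nat10 d/d replicate 2 and at 13.6 to 18.9 in the other 5 libraries. The list as a whole had a median of -0.01, 0.04 and -0.07 among controls, against -0.01, 0.18 and 0.05 among deleted libraries. Only RNA was measured, and the part of Atf4 in the synthetase levels was not tested.

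Genes on either side of tRNA charging also showed no member past the test. The 30 genes of RNA polymerase III, its factors and tRNA processing and export comprised 19 higher and 11 lower (all tested genes, 7154 and 5486). Of the 30, 0 had an unadjusted p under 0.05, and their median change was 0.04. Among them Trnt1, which adds the CCA end that synthetases charge, was higher in every deleted library (21.7 to 24.6 FPKM) than in any control (18.6 to 21.2), with a log2 change of 0.22 and a limma adjusted p of 0.9225. Gtf3c3, a subunit of a polymerase III factor, separated as well (0.15), making 2 of 30 against the upward background of 6.12%. The 9 tested elongation factor genes, cytosolic and mitochondrial, had a median change of -0.09, with 3 higher and 6 lower and 0 at an unadjusted p under 0.05.

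The spread among libraries was close to that of other genes. The median SD of log2(FPKM + 1) over the 37 members was 0.13 among controls and 0.19 among deleted libraries, beside 0.12 and 0.21 over all tested genes. The SD was larger among deleted libraries for 24 of 37 members (64.9%) and for 73.9% of all tested genes. Vars, the valine enzyme, was the extreme case, with 36.2 ± 0.0691 FPKM in the controls and 37.4 ± 5.98 in the deleted libraries (SD, n = 3 each).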

How the data were processed

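The members and gene lists were chosen with earlier results of these data known. The files hold FPKM per gene and library, deposited by the authors; the submitters' processing notes name HISAT2 2.2.1, Cufflinks 2.2.1 and the mm10 build, and the unit follows from Cufflinks and from the values, since the headers do not name it. The annotation, gene filter and strand setting are not given in the sources used here, so overlapping genes are uncertain. Read depth is unknown, and no counting interval is given.

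Values were analysed as log2(FPKM + 1). Genes with at least 1 FPKM in at least 3 libraries (12640) entered a fit in limma 3.58.1 (R 4.3.3; eBayes with a trend, group as the single term), with two-sided p-values adjusted by Benjamini-Hochberg over all tested genes. Lists are described by counts and medians without a test. Intervals are 95% intervals of that fit. Members named with every library are the 3 highest and 3 lowest of each compartment, those without overlap, and Sars, Lars, Sars2, Lars2, Kars, Gars, Wars, Eprs and Tarsl2. The members with a promoter motif, Tars2, Psat1, the named cell type markers, Trnt1, Gtf3c3 and Vars were named after their values were seen. So were the valine and threonine pair ratios. The motif was chosen after 6 others had been looked at. Named values of 1 mitochondrial member are not reported here and it is left out of the pair ratios; counts and medians over 37 genes hold it. Positions and exon overlaps are from GENCODE M21 (GRCm38). Libraries and figures were handled in Python 3.11.15 (pandas 2.3.3, numpy 2.4.6, matplotlib 3.10.9). Alternatives were other scalings, filters, pseudocount, weights, a replicate block and leaving out each library; alternatives for counts were not run, because the files hold FPKM.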

Additional observations from a re-analysis of the deposited data

How the results depend on the processing

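No synthetase gene was called under any of the 9 other settings or without any 1 library (smallest adjusted p 0.1006, for Tars2 with array quality weights in limma). With these weights 316 genes were called in the whole table and 3730 had an unadjusted p under 0.05, 5 of them synthetases, Hars2, Iars2, Tars2 and Vars2 included. Leaving out 1 library gave 0 to 12 called genes and 352 to 1726 at an unadjusted p under 0.05; the 12 came without Nat10 d/d replicate 2, and 0 of them were synthetases, but 1 synthetase had an unadjusted p under 0.05 there, against 0 with all libraries. The median change of the mitochondrial enzymes ranged from -0.05 (without Nat10 d/d replicate 2) to 0.099, and was -0.045 without control replicate 1; the cytosolic median ranged from -0.067 to 0.119. No paired libraries are named by the labels, and deviations of same-numbered libraries correlated at -0.341, -0.029 and 0.1; the replicate block gave 0 called genes, 726 at an unadjusted p under 0.05 and medians of 0.034 and 0.052. Not called in either case, some members near 0 had the other sign. With quantile normalization these were Vars, Yars and Hars (-0.02 each) and Cars (-0.03). With upper-quartile scaling they were Vars (-0.0014), Yars (-0.0059), Hars (-0.002) and Cars (-0.03), and with median centring Yars (-0.00033) and Cars (-0.02). With array quality weights they were Vars (-0.16), Yars (-0.11), Hars and Aars (-0.1 each), Farsa and Cars (-0.05 each), Tarsl2 (-0.03), Lars2 (-0.01), Rars2 (-0.0054), Nars2 (0.06) and Pars2 (0.05). For 23 members the sign turned without some library, 14 of them without Nat10 d/d replicate 2. Their log2 changes ranged from -0.18 to 0.05 for Kars, -0.11 to 0.02 for Qars, -0.07 to 0.15 for Vars, -0.0046 to 0.22 for Gars, -0.03 to 0.16 for Rars, -0.09 to 0.14 for Yars, -0.09 to 0.05 for Farsb, -0.17 to 0.16 for Hars, -0.04 to 0.22 for Tars, -0.11 to 0.05 for Sars, -0.19 to 0.27 for Aars, -0.0016 to 0.18 for Lars, -0.2 to 0.21 for Cars, -0.01 to 0.11 for Tarsl2, -0.12 to 0.19 for Lars2, -0.04 to 0.17 for Fars2, -0.0069 to 0.16 for Rars2, -0.08 to 0.3 for Cars2, -0.2 to 0.1 for Aars2, -0.18 to 0.12 for Nars2, -0.11 to 0.06 for Pars2, -0.12 to 0.04 for Wars2 and -0.01 to 0.09 for Mars2. The cause was not tested.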
